A study of Mus musculus with 2 samples.

Results

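Classical monocytes were taken from the non-cardiomyocyte cells of the mouse heart by a rule on raw UMIs (unique molecular identifiers, the tags by which captured transcripts are counted). They were thus selected on measured transcripts, so the levels of the rule genes are a description. A barcode was a member when it had at least 3 UMIs of Ly6c2 and Chil3 together, at least 1 of Plac8 and at least 1 of Csf1r and Ccr2 together. It also had to hold fewer than 10 UMIs of C1qa, C1qb and C1qc together, fewer than 2 of Arg1, and 0 of Retnlg, Cxcr2, Cd209a, Pdgfra and the CD3 genes. The rule found 191 of 9369 barcodes, which is 2.04% (1.76 to 2.35%, exact binomial 95% interval, counting error only). The hearts came from 4 Nts knockout and 3 control mice, 7 days after TAC. In this operation, transverse aortic constriction, a suture around the aortic arch makes the left ventricle pump against raised pressure. The hearts were perfused to remove blood. All mice of the pool had the operation, so no comparison with unoperated hearts was made. The age given is 6 to 8 weeks. The genotype label of the pool reads WT although its title lists both genotypes, and neither the Nts allele nor the strain is described in the labels. Viable single cells (positive for calcein-AM, negative for DAPI) were sorted from each mouse into 1 tube and loaded as 1 pool with a target of 10000 cells. The hashtag library that would tie a cell to a mouse was not analysed here, so each value below averages over both genotypes, and knockout and control cells were not compared. Cells of 1 pool are not replicates, so no significance test was made.

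Classical monocytes, marked by high Ly6C, are made in the bone marrow, leave it by way of the chemokine receptor CCR2 and enter injured tissue, where they can become macrophages or dendritic-like cells. Part of them lose Ly6C in the blood and become non-classical monocytes, which crawl along the vessel wall and depend on the nuclear receptor Nr4a1. In the pressure-loaded heart, recruited CCR2-positive monocytes add to the macrophages that have resided there since before birth. Ly6c2 encodes the Ly6C surface protein, Chil3 the secreted chitinase-like protein Ym1, and Plac8 a small cysteine-rich protein of myeloid and lymphoid cells.

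The members held 1121535 UMIs, with a median of 5615 per cell (2664 to 15341) and 2031 genes. The 1733 macrophages (at least 10 UMIs of the C1q genes, Csf1r or Adgre1 present, fewer than 3 of Ly6c2 and Chil3) had a similar median of 5619 UMIs, while the median mitochondrial share was 0.472% in classical monocytes and 0.996% in macrophages. The 67 non-classical monocytes (at least 2 UMIs of Ace and Spn, Csf1r or Cx3cr1 present, fewer than 3 of Ly6c2 and Chil3, fewer than 10 of the C1q genes and of Dcn) had a median of 4085 UMIs and 317200 in all, so their levels are the least precise. Levels are CPM, the UMIs of a gene in a set divided by all UMIs of that set and multiplied by 1000000, with an exact Poisson 95% interval, and fold differences carry an exact binomial 95% interval. These intervals cover counting error only, since variation between cells or mice does not enter them. A gene counted as past 2-fold when it had at least 20 UMIs over both sets, a ratio of at least 2 either way and an interval that left out 1. Genes of the rules were left out of these counts. In a pooled suspension, more RNA of a gene per cell and more cells that carry it are summed in the same level.

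3 markers of the part that the rule did not use are described beside the label. The members were chosen with earlier results of these data known, so these markers are no independent check. Ms4a4c, a membrane protein of the MS4A family, stood at 688 CPM (641 to 739) in classical monocytes, 183 CPM (139 to 236) in non-classical monocytes and 63.1 CPM (58.5 to 68.0) in macrophages. Hp, which encodes the hemoglobin-binding plasma protein haptoglobin, stood at 1272 CPM (1206 to 1339), 772 CPM (679 to 875) and 7.07 CPM (5.58 to 8.83) in the same order of sets. Ifitm6, an interferon-induced transmembrane protein, stood at 716 CPM (667 to 767), 634 CPM (549 to 728) and 30.7 CPM (27.5 to 34.1). Ms4a4c thus separated the members from both other sets, whereas Hp and Ifitm6 separated them from macrophages and were within 2-fold of the non-classical monocytes. Ms4a4c had a UMI in 170 of the 191 members, Hp in 167 and Ifitm6 in 159. All 3 were seen together in 133 members, 2 of them in 41, 1 in 15 and 0 in 2. After each barcode was thinned to 2500 UMIs, Hp was seen in 79.6% of classical monocytes, 59.7% of non-classical monocytes and 1.38% of macrophages. The thinned share of cells with Hp was 1.20% in fibroblasts and 2.60% in T cells, taken as the background, at median depths of 8386.5 UMIs in fibroblasts and 3575 in T cells.

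**Figure D1:**
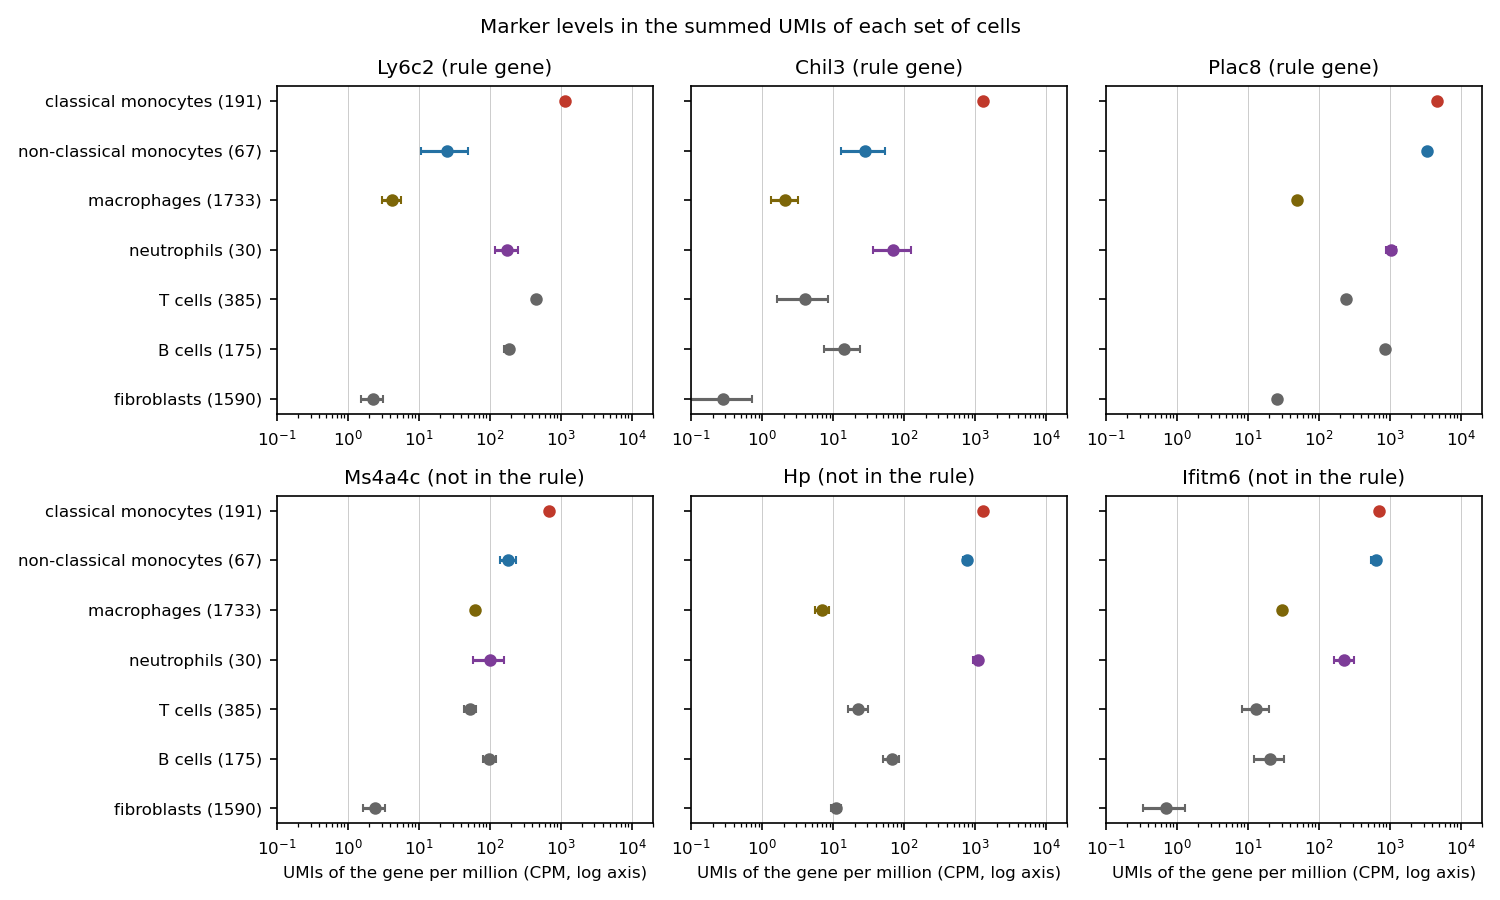
CPM (log axis) of the 6 markers in the summed UMIs of 7 sets of cells, with exact Poisson 95% intervals and the number of cells of each set in brackets. Ms4a4c was 688 CPM in classical monocytes, above every other set, while Hp was 1272 CPM there, 772 in non-classical monocytes and 1081 in neutrophils.

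The genes that chose the members are given as a description. Ly6c2 was 1151 CPM and Chil3 1287 CPM in the members. Per cell, Ly6c2 had a median of 5 UMIs (0 to 44), Chil3 of 4 (0 to 67) and Plac8 of 24 (2 to 110). Both Ly6c2 and Chil3 were seen in 120 members, Ly6c2 alone in 54 and Chil3 alone in 17. Csf1r, the receptor for the growth factor CSF1, was seen in 167 members and Ccr2 in 172. Ly6c2 is no monocyte-only gene in this pool, since T cells had 451 CPM and B cells 186 CPM. Chil3 stayed at 4.05 CPM in T cells and 14.2 CPM in B cells. The B cell set shared 2 barcodes with the members, and without them B cells had 188 CPM of Ly6c2 and 1.11 CPM of Chil3. Near-identical genes limit these counts: of the 90-base windows in the last 500 bases of the Ly6c2 transcripts, 19.3% occur unchanged in Ly6c1, and for Chil3 8.06% occur in Chil4. Chil4 had 0 UMIs in the members. Ly6c1, a gene of endothelial cells and lymphocytes, had 32.1 CPM there, with 29 of 36 UMIs in 1 cell.

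The promoters of Ly6c2, Chil3 and Plac8, which the rule requires, and of Ms4a4c and Ifitm6, which it did not use, are shown because these genes mark the cells. PU.1 and C/EBP are the main transcription factor families of monocytes. Each sequence runs from 250 bases before to 50 bases after the start of transcription in RefSeq (build GRCm38.p6), which lists 2 starts for Ly6c2, of which 1 is shown, and 2 for Plac8, both shown. The PU.1 core GAGGAA and the C/EBP pattern TTGCNNAA were searched on both strands, and matches are in capitals.
Ly6c2, chr15:75111922-75112221, minus strand: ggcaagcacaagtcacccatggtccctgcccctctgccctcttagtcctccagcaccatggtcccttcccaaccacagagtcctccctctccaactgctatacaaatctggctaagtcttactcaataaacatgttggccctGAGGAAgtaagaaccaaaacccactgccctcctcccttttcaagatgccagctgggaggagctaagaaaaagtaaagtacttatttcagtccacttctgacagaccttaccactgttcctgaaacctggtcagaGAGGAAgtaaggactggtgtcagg
Chil3, chr3:106167515-106167814, minus strand: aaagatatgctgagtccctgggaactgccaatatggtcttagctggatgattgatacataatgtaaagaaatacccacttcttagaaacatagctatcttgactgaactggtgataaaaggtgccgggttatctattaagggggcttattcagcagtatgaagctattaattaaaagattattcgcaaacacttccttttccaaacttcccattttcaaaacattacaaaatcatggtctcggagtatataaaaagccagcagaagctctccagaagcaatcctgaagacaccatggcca
Plac8, chr5:100572156-100572455, minus strand: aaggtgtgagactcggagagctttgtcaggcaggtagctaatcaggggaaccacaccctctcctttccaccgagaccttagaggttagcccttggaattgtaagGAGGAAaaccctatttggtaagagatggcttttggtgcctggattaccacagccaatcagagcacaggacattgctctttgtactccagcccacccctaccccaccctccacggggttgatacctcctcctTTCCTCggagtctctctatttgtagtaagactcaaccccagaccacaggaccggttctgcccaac
Plac8 from the other start, chr5:100563047-100563346, minus strand: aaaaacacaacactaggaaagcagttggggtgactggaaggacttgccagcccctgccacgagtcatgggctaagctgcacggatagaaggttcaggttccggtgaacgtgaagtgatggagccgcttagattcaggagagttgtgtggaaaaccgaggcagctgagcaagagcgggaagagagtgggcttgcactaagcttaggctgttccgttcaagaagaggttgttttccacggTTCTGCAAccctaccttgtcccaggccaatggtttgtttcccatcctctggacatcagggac
Ms4a4c, chr19:11407411-11407710, plus strand: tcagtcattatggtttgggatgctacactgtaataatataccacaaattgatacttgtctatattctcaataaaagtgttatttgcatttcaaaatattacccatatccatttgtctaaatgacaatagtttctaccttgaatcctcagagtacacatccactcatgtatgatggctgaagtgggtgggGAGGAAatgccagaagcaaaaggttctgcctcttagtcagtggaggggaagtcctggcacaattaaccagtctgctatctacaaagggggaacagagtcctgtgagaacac
Ifitm6, chr7:141016843-141017142, minus strand: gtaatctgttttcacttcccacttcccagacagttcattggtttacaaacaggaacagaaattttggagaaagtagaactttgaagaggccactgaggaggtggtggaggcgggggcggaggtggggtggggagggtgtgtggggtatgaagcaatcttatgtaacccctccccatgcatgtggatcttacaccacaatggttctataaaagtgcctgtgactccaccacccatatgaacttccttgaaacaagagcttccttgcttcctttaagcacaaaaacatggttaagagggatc

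GAGGAA occurs in the Ly6c2 window 108 bases before the start and again at base 27 after it, and in the Ms4a4c window 61 bases before the start. The first Plac8 window holds it 146 bases before the start and, on the opposite strand, 15 bases before it. The other Plac8 window holds TTGCNNAA on the opposite strand, 12 bases before the start. The Chil3 and Ifitm6 windows hold neither motif. Of 32851 mouse promoter windows, 28.3% hold GAGGAA and 10.8% hold TTGCNNAA, so a match is a description of these letters and no evidence of binding.

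Barcodes just inside and just outside the rule had similar Hp and Ifitm6 levels and different levels of Treml4, Dcn and S100a8. The 35 members with 3 or 4 UMIs of Ly6c2 and Chil3 had 666 CPM of Hp, 617 CPM of Ms4a4c and 523 CPM of Ifitm6. The 56 barcodes with 1 or 2 UMIs that met every other condition had 705 CPM of Hp, 486 CPM of Ms4a4c and 536 CPM of Ifitm6. Treml4, a receptor of non-classical monocytes, stood at 29.6 CPM just inside and 182 CPM just outside. The fibroblast gene Dcn stood at 192 and 691 CPM and S100a8 at 19.7 and 105 CPM in the same order. The limit on C1q set aside 30 barcodes that met all other conditions. These had 6416 CPM of Apoe and 479 CPM of Hp, and a median of 10634 UMIs, against 5615 in the members. The conditions on Retnlg and Cxcr2 set aside 5 barcodes with 6649 CPM of S100a8 and 2046 CPM of Hp.

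Genes of most other lineages were seen in few members. For T cells this was partly set by the rule, which required 0 UMIs of the CD3 genes. That condition alone set aside 19 barcodes. At least 2 UMIs of a set of T cell receptor genes were found in 0 members, of B cell genes in 2, of natural killer genes in 2, of plasmacytoid dendritic genes in 2, of endothelial genes in 2 and of mural genes in 2, which made 10 members in all. Single members could hold many such UMIs, with 73 of the natural killer genes and 60 of Rgs5 and Myh11 in the highest. The fibroblast gene Dcn was the exception, with at least 2 UMIs in 71 members and 10 or more in 3. After thinning, Dcn was seen in 40.8% of classical monocytes and 56.4% of T cells, so its share was not above background. Scrublet, a doublet caller, marked 3 members (1.57%) against 3.78% of all barcodes, and these were kept. The limits on the CD3 genes, Pdgfra and C1q can also remove mixed barcodes, and their part in that share was not tested.

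Against macrophages, classical monocytes were marked by genes of the circulating monocyte and by lower levels of macrophage genes, several of them nearly absent. Of 12522 genes measured, 833 (6.65%) were past 2-fold higher and 1485 (11.9%) past 2-fold lower in classical monocytes, and the median log2 ratio over all of them was -0.13. Among well-measured genes (at least 100 CPM on the higher side), the largest ratio was that of Ly6a2, which had 251 CPM (223 to 283) in classical monocytes and 0.367 CPM, from 4 UMIs, in macrophages. Ly6a2 (chr15:75131377-75135128, GRCm38) lies near Ly6c2 (chr15:75108158-75111970) and is annotated in GENCODE M21 as a transcribed pseudogene. Its overlap with other Ly6 transcripts was not tested. Cd177, a surface protein best known on neutrophils, had 109 CPM (90.3 to 129.9) in classical monocytes and 0.367 CPM, again from 4 UMIs, in macrophages. Hp followed at 179.9-fold (143 to 229) higher. F10, coagulation factor X, was 28.4-fold (23.1 to 35.2) higher, Gsr, glutathione reductase, 29.1-fold (25.3 to 33.5), and Ifitm6 23.4-fold (20.5 to 26.6). Gm9733, Mcemp1, a membrane protein of myeloid cells, and Plcb1, a phospholipase C, were also among the 10 largest, at 82.0, 46.9 and 34.6-fold higher. Over the alternatives, the ratio ranged from 194.7 to 1307 for Ly6a2, from 183 to 577 for Cd177, from 88.8 to 211 for Hp and from 25.7 to 65.0 for F10.

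The genes with the largest ratios in the other direction included known genes of resident macrophages. Cd163, the scavenger receptor for hemoglobin bound to haptoglobin, had 1 UMI in all members and 137 CPM in macrophages. Folr2, a folate receptor, had 3.57 CPM (0.972 to 9.13) in classical monocytes and 433 CPM (420.3 to 445) in macrophages. Lyve1, a hyaluronan receptor of vessel-associated macrophages, had 1.78 and 211 CPM in the same order. Pf4, a platelet-type chemokine, was 92.6-fold (66.9 to 132) lower in classical monocytes. Fcrls, Retnla, Cbr2, Mgl2, Ltc4s and Ccl8 completed the 10, all between 58.8 and 148-fold lower. All 19 measured macrophage markers were past 2-fold lower, among them Mrc1 (the mannose receptor, 16.05 against 573 CPM) and Apoe (apolipoprotein E, 1589 against 12680 CPM). The C1q genes set both groups and Adgre1 helped to choose the macrophages, so this direction is partly fixed by the rules. Of 10 macrophage markers measured against non-classical monocytes, 4 were past 2-fold higher in classical monocytes and 0 lower. The shares over all measured genes there were 7.01% and 7.09%.

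Against non-classical monocytes, 446 of 6364 measured genes (7.01%) were past 2-fold higher and 451 (7.09%) past 2-fold lower in classical monocytes, with a median log2 ratio of 0.05. Without the highest cell of each set for each gene, 615 were higher and 327 lower. Without the limit on Dcn in non-classical monocytes, 501 were higher and 1057 lower, and 22 of 112 named genes were short of the call. Vcan, a large matrix proteoglycan, had 228 CPM (201 to 258) in classical monocytes, while its level in non-classical monocytes rested on 1 UMI, or 3.15 CPM. Without the Dcn limit the Vcan ratio was 1.18. F13a1, the A subunit of coagulation factor XIII, had 397 CPM (361 to 435) in classical monocytes and 12.6 CPM (3.44 to 32.3) in non-classical monocytes, 31.5-fold (12.2 to 116) apart. Ccr1, a receptor for inflammatory CC chemokines, was 13.9-fold (5.33 to 51.4) higher, and Fn1, which encodes fibronectin, had 626 CPM (580.5 to 674) in classical monocytes and 56.7 CPM (33.6 to 89.7) in non-classical monocytes. Ly6a2, Cd177 and Plcb1 were 19.9, 17.3 and 10.7-fold higher. Over the alternatives, these ratios ranged from 28.5 to 91.8 for F13a1, from 3.02 to 30.8 for Fn1, from 18.0 to 36.4 for Ly6a2, from 17.0 to 33.4 for Cd177 and from 9.80 to 21.9 for Plcb1. Ccl7 and Spp1 also belonged to the 10 largest, but most of their UMIs came from single members, as described below.

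Several genes lower than in non-classical monocytes are known genes of that subset. Cd300e, an activating receptor, had 0.892 CPM (0.0226 to 4.97) in classical monocytes and 164 CPM (122 to 215) in non-classical monocytes. Treml4 had 33.9 CPM (24.0 to 46.5) and 366 CPM (302 to 439), and Eno3, the muscle-type enolase, 27.6 CPM (18.8 to 39.2) and 662 CPM (576 to 758), in the same order. Itgax, which encodes CD11c, was 117-fold (19.5 to 4746) lower, and Pparg, a lipid-sensing nuclear receptor, 20.8-fold (9.72 to 50.9) lower. Adgre4, an adhesion receptor, Dusp16, a phosphatase, Slc12a2, an ion transporter, and Bcl2a1a, a survival gene, were between 10.6 and 11.8-fold lower. Ube2c, a mitotic ubiquitin enzyme, was 18.7-fold lower, with a ratio of 0.566 once the highest cell of each set was left out. Nr4a1 itself was 555 CPM in classical and 1308 CPM in non-classical monocytes, 2.36-fold (2.08 to 2.68) lower. Of 16 measured non-classical markers, 14 were past 2-fold lower and 0 higher. Since Spn, Ace and Cx3cr1 chose the non-classical set, part of this pattern follows from the rule. Against macrophages, 8 of 17 measured genes of the same list were past 2-fold higher in classical monocytes and 4 lower. The shares over all measured genes there were 6.65% and 11.9%.

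**Figure D2:**
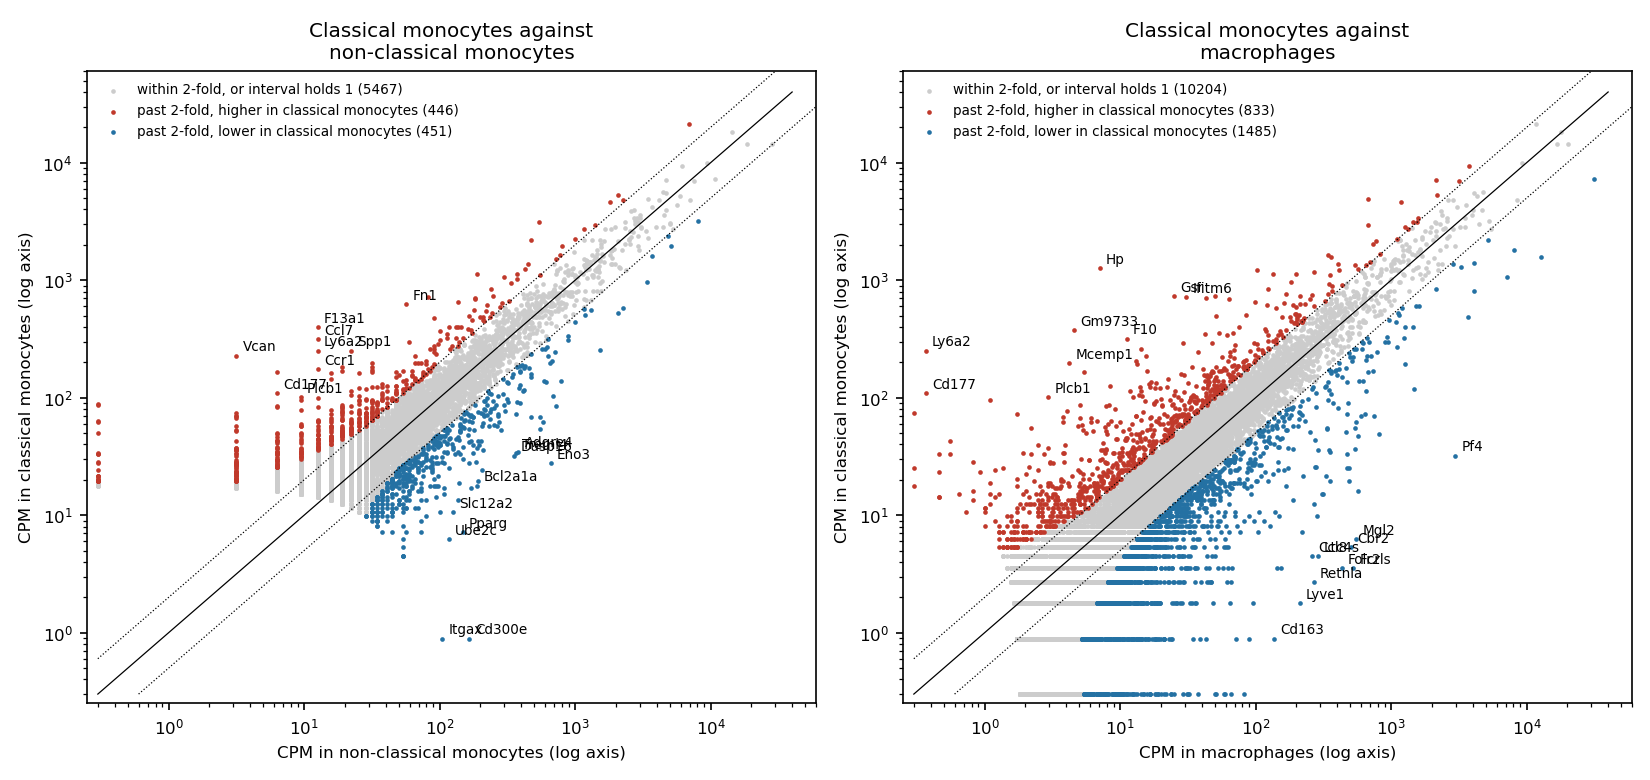
CPM of each measured gene in classical monocytes (vertical, log axis) against non-classical monocytes (left) and macrophages (right), with lines at equality and at 2-fold; genes at 0 are drawn at 0.3 CPM. Red genes are past 2-fold higher in classical monocytes (446 on the left, 833 on the right) and blue genes past 2-fold lower (451 and 1485), and the labelled genes are among the farthest from the line of those well measured.

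The list of classical monocyte markers had 15 of 18 genes past 2-fold higher than macrophages and 0 lower (median log2 ratio 3.51). Against non-classical monocytes, 12 of 18 were higher and 1 lower (median 1.77). The list includes Ms4a4c, Hp and Ifitm6 and was chosen with earlier results of these data known, so it is no independent check of the label. Counts of this and the following lists are to be read beside the shares over all measured genes. Those shares were 6.65% higher and 11.9% lower against macrophages, and 7.01% and 7.09% against non-classical monocytes. Lyz2, lysozyme, was the gene with the most UMIs in the members at 21463 CPM, against 6967 CPM in non-classical monocytes and 11691 CPM in macrophages. The calcium-binding proteins S100a4 and S100a6 were 4.77 and 3.94-fold higher than in macrophages and 2.12 and 2.59-fold higher than in non-classical monocytes. Without the Dcn limit the S100a6 ratio to non-classical monocytes was 1.34. The one lower gene was Ly6i, another Ly6 protein, at 73.1 CPM (58.1 to 90.8) in classical and 268 CPM (214 to 331) in non-classical monocytes, although it was 41.9-fold higher than in macrophages.

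S100a8 and S100a9, often counted among monocyte genes, were close to background. S100a8 had 20.5 CPM in classical monocytes, 91.4 CPM (61.2 to 131) in non-classical monocytes, 23.3 CPM (20.5 to 26.4) in macrophages and 22488 CPM in the 30 neutrophils. Their summed UMIs were 0 in 148 members and at most 2 in any. The thinned share of cells with S100a8 was 4.71% in classical monocytes and 8.05% in T cells, so the gene was not distinguishable from background in the members. Because barcodes with any Retnlg or Cxcr2 were set aside, these genes describe only barcodes without those transcripts. Of the mature neutrophil list, 9 of 12 measured genes were nevertheless past 2-fold higher than in macrophages and 1 lower, led by Cd177, Hdc (histidine decarboxylase, 39.2 against 2.48 CPM) and Trem1 (an activating receptor, 80.2 against 9.18 CPM). Against non-classical monocytes the same list had 2 of 11 genes higher and 4 lower, and 4 of 10 higher and 1 lower without the highest cell of each set.

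Some genes of the neutrophil granule and progenitor list were present. Of this list, 3 of 4 measured genes were past 2-fold higher than in macrophages and 0 lower. Against non-classical monocytes, 2 of 3 were higher and 0 lower. Mmp8, a collagenase stored in neutrophil granules, had 74.0 CPM (58.9 to 91.7) in classical monocytes, against 1 UMI in non-classical monocytes and 3 UMIs in macrophages. Its UMIs were spread over 59 members, the highest holding 3. Prtn3, the granule protease proteinase 3, had 63.3 CPM (49.4 to 79.9) in classical monocytes and 6.79 CPM (5.33 to 8.53) in macrophages. It had 0 UMIs in non-classical monocytes. With that side set to 3 UMIs its ratio was 6.69, and over the alternatives 4.54 to 36.6. Neutrophils had 0 UMIs of Prtn3. Ngp, Camp, Elane and Ms4a3 had 0 UMIs in the members.

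Of the chemoattractant receptors, 3 of 14 measured genes were past 2-fold higher than in macrophages and 5 lower, and 5 of 10 were higher than in non-classical monocytes and 3 lower. Ltb4r1, the receptor for leukotriene B4, had 170.3 CPM (147 to 196) in classical monocytes, 85.1 CPM (56.1 to 124) in non-classical monocytes and 15.9 CPM (13.6 to 18.4) in macrophages. Ccr1 had 175, 12.6 and 86.6 CPM in the same order. The complement receptors C5ar1 and C3ar1 were 4.36 and 9.81-fold lower than in macrophages. Cxcr4, which retains leukocytes in the marrow, was 2.64-fold (2.26 to 3.09) lower than in non-classical monocytes, and S1pr5, which serves exit into blood, 9.43-fold lower. Without the Dcn limit the Cxcr4 ratio was 0.653.

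Of the adhesion genes, past 2-fold higher than macrophages were 6 of 16 measured genes and lower 1; against non-classical monocytes 5 of 15 were higher and 4 lower. Itgb7, the beta chain of the gut-homing integrin, had 259 CPM (231 to 291) in classical monocytes, 91.4 CPM (61.2 to 131) in non-classical monocytes and 14.1 CPM (12.0 to 16.6) in macrophages. Itgal, the alpha chain of LFA-1, and Itga4, the alpha chain of VLA-4, lay between the other sets: Itgal had 103, 690.4 and 14.4 CPM and Itga4 228, 634 and 64.2 CPM in that order of sets. Cd93, a C-type lectin-like receptor, had 83.8 CPM in classical monocytes and 6.31 CPM in non-classical monocytes.

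Among chemokine ligands, 2 of 18 measured genes were past 2-fold higher than in macrophages and 7 lower (median log2 ratio -0.58), and 7 of 15 were higher than in non-classical monocytes and 1 lower (median 0.53). With the highest cell of each set left out for each gene, 0 were higher than in macrophages and 12 lower, so these counts turned on few cells. Ccl6, a CC chemokine of mouse myeloid cells, had 2249 CPM in classical monocytes, 989.9 in non-classical monocytes and 1111 in macrophages. Cxcl2, a neutrophil attractant, was 2.33-fold (2.24 to 2.42) lower than in macrophages, Cxcl16 9.13-fold lower and Ccl12 had 19.6 CPM in classical monocytes and 490.4 CPM in macrophages. For Ccl2, the main CCR2 ligand, 538 of 807 UMIs came from 1 member, for Ccl7 305 of 354, and for Cxcl9, an interferon-gamma target, 68 of 100. Ccl2 was 719.5 CPM in classical monocytes, 82.0 in non-classical monocytes and 697 in macrophages, and 1 cell set the classical monocyte level in large part.

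Inflammatory cytokines had 2 of 19 measured genes past 2-fold higher than in macrophages and 5 lower, and 5 of 14 higher than in non-classical monocytes and 1 lower. Il1b, interleukin-1 beta, was abundant in all 3 sets, at 2647 CPM in classical monocytes, 2522 in non-classical monocytes and 1785 in macrophages, and had a UMI in 156 members. Osm, oncostatin M, an IL-6 family cytokine, had 181 CPM (157 to 208), 18.9 CPM (6.94 to 41.2) and 80.1 CPM (74.9 to 85.6) in that order and was past 2-fold higher against both. Ptgs2, cyclooxygenase 2, was 2.13-fold higher than in macrophages and 4.15-fold higher than in non-classical monocytes. The Ptgs2 ratio to non-classical monocytes was 1.95 without the Dcn limit and 1.97 with the rules on thinned barcodes. Tnf was lower than in both, at 54.4, 164 and 339 CPM, though its ratio to non-classical monocytes was 0.615 without the highest cell of each set. Nlrp3, the inflammasome sensor, was 3.25-fold higher than in non-classical monocytes and within 2-fold of macrophages.

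Of pattern recognition and Fc receptors, 6 of 23 measured genes were past 2-fold higher than in macrophages and 1 lower, and 6 of 19 were higher than in non-classical monocytes and 2 lower. Clec4e (Mincle), a lectin that senses mycobacterial lipid and dying cells, had 498 CPM (457 to 541) in classical monocytes, 429 CPM (359.7 to 507) in non-classical monocytes and 51.4 CPM (47.2 to 55.8) in macrophages. Cd14, the lipopolysaccharide co-receptor, was 5.77-fold higher than in non-classical monocytes. Msr1, a scavenger receptor, was 10.2-fold higher and Fcgr1, the high-affinity IgG receptor, 6.40-fold higher than in non-classical monocytes. Fcgr4, an IgG receptor of non-classical monocytes, was past 2-fold lower than in both, at 38.3, 148 and 119.8 CPM. Among cytokine receptors, 4 of 20 measured genes were past 2-fold higher than in macrophages and 2 lower. Against non-classical monocytes, 2 of 19 were higher and 2 lower. The lower count against macrophages and both counts against non-classical monocytes were near the shares over all measured genes (11.9%, 7.01% and 7.09%). Il17ra, the IL-17 receptor, had 121 CPM in classical monocytes and 19.5 CPM in macrophages, and Csf2rb, the shared chain of the GM-CSF receptor, 140.0 and 44.6 CPM. Tgfbr1, a TGF-beta receptor, was 3.59-fold lower than in macrophages and 3.42-fold lower than in non-classical monocytes.

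Type I interferon response genes had no measured gene past 2-fold lower against either set. Higher than in macrophages were 12 of 24 measured genes (median log2 ratio 1.03, against -0.13 over all genes), and higher than in non-classical monocytes 18 of 23 (median 1.61, against 0.05). Without the highest cell of each set, the counts were 10 and 15. Irf7, a transcription factor that amplifies the response, had 388 CPM (352 to 426) in classical monocytes, 161 CPM (119.7 to 211) in non-classical monocytes and 118 CPM in macrophages. Isg15, a ubiquitin-like modifier, had 367, 101 and 153 CPM in that order, and Slfn1, a Schlafen protein, 115, 22.1 and 14.2 CPM. Ifitm3, a membrane protein that blocks virus entry, was the most abundant of the list at 7131 CPM, against 4666 and 2127 CPM. Rsad2, Ifit1, Ifit3 and Usp18 had 1 UMI each in non-classical monocytes, so their ratios there are imprecise. Rsad2 and Ifit3 were within 2-fold of macrophages, and the ratio of Rsad2 to non-classical monocytes was 0.265 when the rules were applied to thinned barcodes.

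Oxidative and antimicrobial genes had 5 of 20 measured genes past 2-fold higher than in macrophages and 3 lower, and 4 of 17 higher than in non-classical monocytes and 0 lower. Slpi, a secreted protease inhibitor, had 648 CPM (602 to 697) in classical monocytes, 136 CPM (98.1 to 183) in non-classical monocytes and 98.3 CPM (92.5 to 104) in macrophages. Prdx5, a peroxide-reducing enzyme, was 4.36-fold higher than in macrophages. Of the NADPH oxidase, the cytosolic subunit Ncf4 was 2.02-fold higher than in macrophages, and the membrane subunit Cybb 1.77-fold. Ltc4s, leukotriene C4 synthase, was 64.5-fold (27.6 to 199) lower than in macrophages.

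Coagulation genes had 7 measured genes past 2-fold higher and 4 lower of 16 against macrophages (median log2 ratio 0.90), and 4 higher and 0 lower of 9 against non-classical monocytes (median 0.99). Besides F10, the higher genes included Thbs1, thrombospondin 1, at 1128 CPM (1067 to 1192) in classical monocytes, 189 CPM (144 to 243) in non-classical monocytes and 134 CPM (127 to 141) in macrophages. Plaur, the urokinase receptor, was 5.60-fold higher than in macrophages, Serpinb10, an intracellular protease inhibitor, 87.4-fold, and F5, coagulation factor V, 15.0-fold. F13a1 was past 2-fold higher only against non-classical monocytes, and macrophages had 586 CPM of it. The lower genes included Plau, urokinase, Tfpi and Serpinb2, the last with a ratio of 1.89 once macrophages with 2 or more Arg1 UMIs were left out. Tissue factor, F3, had 1 UMI in the members and F7 had 0.

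Matrix proteases and wound genes showed a mixed pattern. Adam8, a membrane protease of leukocytes, had 65.1 CPM in classical monocytes, 12.6 in non-classical monocytes and 14.2 in macrophages, and Mmp19, a matrix metalloproteinase, 41.9, 12.6 and 13.2 CPM. Lgals3, galectin 3, had 2958, 1403 and 680.4 CPM. Fn1 was 2.96-fold higher than in macrophages. With macrophages of Arg1 under 2 it was 6.42-fold higher. The macrophage elastase Mmp12 and the collagenase Mmp13 were 80.9 and 17.6-fold lower than in macrophages. Over the alternatives, Mmp12 was between 14.2 and 89.4-fold lower and Mmp13 between 15.8 and 36.8-fold lower. Of the wound and lipid-associated macrophage genes, 4 of 18 measured genes were past 2-fold higher and 10 lower than in macrophages, and 8 of 13 higher and 1 lower than in non-classical monocytes. Trem2, a lipid receptor of such macrophages, had 90.9 CPM in classical monocytes, 31.5 in non-classical monocytes and 370.4 in macrophages. Igf1, a growth factor, had 9.81 CPM in classical monocytes and 284 in macrophages.

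**Figure D3:**
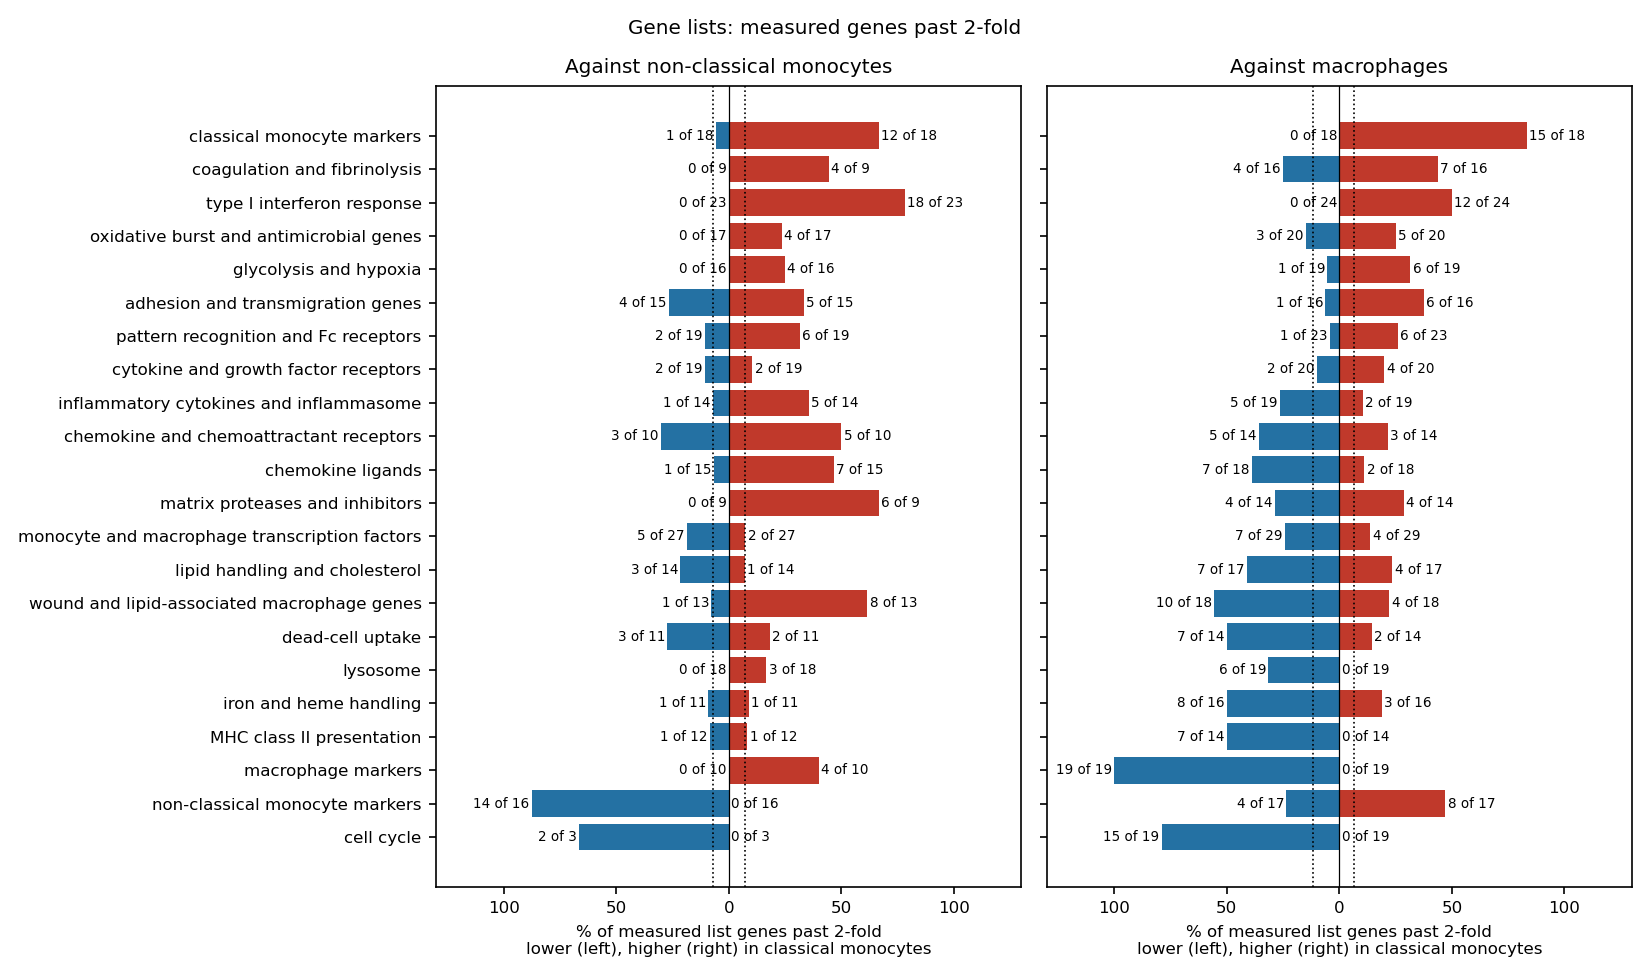
Share of the measured genes of 22 lists that were past 2-fold higher (red, right) or lower (blue, left) in classical monocytes, against non-classical monocytes (left panel) and macrophages (right panel), with the counts beside the bars and dotted lines at the share over all measured genes. Interferon response genes were higher in 18 of 23 and 12 of 24 and lower in 0, and cell cycle genes were lower in 2 of 3 and 15 of 19.

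Of the glycolysis and hypoxia list, 6 of 19 measured genes were past 2-fold higher and 1 lower than in macrophages, and 4 of 16 higher and 0 lower than in non-classical monocytes. Pkm, pyruvate kinase, had 1115 CPM in classical monocytes, 555 in non-classical monocytes and 351 in macrophages. Slc16a3, the lactate exporter MCT4, was 6.14-fold (5.33 to 7.06) higher than in macrophages, and Slc2a1, the glucose transporter GLUT1, 3.40-fold. Hif1a, the hypoxia-inducible factor, which is counted with the transcription factors, was 3.02-fold higher than in macrophages. Of iron and heme genes, 3 of 16 were past 2-fold higher and 8 lower than in macrophages. Hmox1, heme oxygenase, had 507, 1182 and 1145 CPM in classical monocytes, non-classical monocytes and macrophages. The iron exporter Slc40a1 had 0 UMIs in the members and 29.1 CPM in macrophages. Lysosome genes had 0 of 19 measured genes past 2-fold higher and 6 lower than in macrophages, among them the proteases Ctsb and Lgmn at 2.53 and 3.16-fold lower. Of the genes for uptake of dead cells, 7 of 14 were past 2-fold lower, including the receptor kinase Mertk and its ligand Gas6, and 2 higher, Anxa1 and Scarb1. Lipid genes were split 4 higher and 7 lower of 17, and the cholesterol exporter Abca1 was 10.7-fold lower than in macrophages.

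Class II antigen presentation was lower than in macrophages in 7 of 14 measured genes and higher in 0. Cd74, the invariant chain, had 7228 CPM in classical monocytes, 10772 in non-classical monocytes and 31361 in macrophages. H2-Eb1 was 6.77-fold (6.39 to 7.17) lower than in macrophages. Of 12 genes measured against non-classical monocytes, 1 was higher, the thiol reductase Ifi30, and 1 lower, H2-DMb2. Both counts were near the shares over all measured genes (7.01% and 7.09%). The H2-DMb2 ratio was 1.06 with the rules on thinned barcodes. Of dendritic cell markers, 2 of 14 measured genes were past 2-fold higher and 3 lower than in macrophages, and 1 of 8 higher and 5 lower than in non-classical monocytes. Flt3, a growth factor receptor of dendritic cell precursors, rested on 10 UMIs in classical monocytes and was 7.47-fold higher than in macrophages, and Ifi205, an interferon-induced gene, was 4.76-fold higher. Clec10a, a galactose-binding lectin, had 41.0 CPM in classical monocytes and 9.46 CPM, from 3 UMIs, in non-classical monocytes. Zbtb46, Xcr1 and Clec9a had 0 UMIs in the members. Because barcodes with any Cd209a were set aside, the dendritic cell markers describe only barcodes without that transcript. The 22 barcodes that failed only this condition had 411 CPM of Clec10a.

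Of 29 transcription factors measured against macrophages, 4 were past 2-fold higher and 7 lower. Nfil3, a basic leucine zipper factor, had 504 CPM in classical monocytes, 299.5 in non-classical monocytes and 85.2 in macrophages, and Cebpb 6979, 7588 and 3160.0 CPM. The macrophage factor Maf was 9.75-fold lower than in macrophages. Pparg and Nr1h3, the oxysterol receptor LXR alpha, were 20.8 and 5.71-fold lower than in non-classical monocytes. Against that set, 2 of 27 were higher, near the 7.01% over all measured genes, and 5 lower. Cell cycle genes were lower than in macrophages in 15 of 19 measured genes and higher in 0. Mki67, a marker of dividing cells, had 4 UMIs in all members, or 3.57 CPM (0.972 to 9.13), against 32.7 CPM (29.4 to 36.2) in macrophages. Genes of the immediate early response, which tissue digestion can induce, were past 2-fold lower than in macrophages in 4 of 16 and higher in 0. Fos had 3395, 2736 and 3512 CPM in classical monocytes, non-classical monocytes and macrophages.

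Some genes of other lineages had most of their UMIs in 1 member. Of the summed mural markers, 84.9% of UMIs lay in 1 member, and of the endothelial and natural killer markers 41.9 and 41.7%. Fibroblast markers were spread instead, with 1421 CPM in all, a UMI in 189 members and 20.2% of UMIs in the highest. Rgs5, a pericyte gene, was 2.12-fold higher than in macrophages, but 59 of its 71 UMIs lay in 1 member, and without the highest cell of each set the ratio was 0.595. Acta2, smooth muscle actin, had 80 of 96 UMIs in 1 member. Ccr9 had 19 of 20 UMIs in 1 member, and Gzma, granzyme A, 58 of 77. Of the 833 genes higher than in macrophages, 45 (5.40%) had 50% or more of their UMIs in a single member. Of the 446 higher than in non-classical monocytes, 16 (3.59%) did. The same share over all measured genes was not computed, so these shares have no background to be read against.

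Among themselves the classical monocytes differed widely in class II level, the summed level of H2-Aa, H2-Ab1, H2-Eb1 and Cd74. It ranged from 0 to 119150 CPM per cell. Quartiles were 457 and 6554 CPM around a median of 1034 CPM in classical monocytes, while the median was 1714 CPM in non-classical monocytes and 49802 CPM in macrophages. The members were divided into upper, middle and lower ranges of 63, 64 and 64 cells, which are ranges and not cell types. The lowest member of the upper range had 2602 CPM and the highest of the middle range 2592 CPM. The class II genes chose the ranges and are not compared.

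Members with high class II had less of several genes of the circulating monocyte. Slpi was 188 CPM in the upper range and 745 CPM in the lower range, 3.96-fold lower. Mgst1, a microsomal glutathione transferase, was 299 and 939 CPM, Fn1 324 and 904 CPM, and Hp 784 and 1567 CPM in the same order. Mmp8 and Prtn3 were 4.60 and 2.52-fold lower in the upper range. The summed classical monocyte markers were 31721 CPM in the upper range and 44959 CPM in the lower range. The summed macrophage markers were 3679 CPM in the upper range and 1899 CPM in the lower range. Apoe was 2395 and 955 CPM, and H2-DMb1, which loads peptides on class II and was not used for the ranges, 648 and 78.2 CPM. Cxcl16 was 14.4-fold higher in the upper range (18.8 without the highest cell of each range), Ms4a7, a macrophage membrane protein, 3.97-fold (4.32), and the phospholipid transfer protein Pltp 3.67-fold (4.38). Markers of other cell types differed too, not all in the same direction. Fibroblast markers had 1791 CPM in the upper range and 896 CPM in the lower range, natural killer markers 329 and 43.2 CPM, mural markers 9.90 and 480.2 CPM, endothelial markers 312 and 192 CPM, and B cell and plasma cell markers 428 and 267 CPM in the same order. The lower range included the cell with 169 of all 199 mural UMIs. The upper range included the cell with 103 of all 247 natural killer UMIs. The part of these other cell types in the result was not tested. Class II also moved with nearness to the limit of the rule, since H2-Aa was 4430 CPM in the 35 members with 3 or 4 UMIs of Ly6c2 and Chil3 and 1219 CPM in the other 156. Hp was 666 and 1405 CPM in the same order. The part of that limit was not tested. Median depth was 5900 UMIs in the upper range and 5620.5 in the lower range.

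The highest Ccl2, Ccl7 and Spp1 levels belonged to single members. Ccl2 was 6.95-fold higher in the upper range than in the lower range, and 2.32-fold without the highest cell of each. Ccl7 was 49.7-fold higher, and 3.67-fold without them. Spp1, which encodes osteopontin, was 47.3-fold higher, and 6.11-fold without them, since 238 of its 282 UMIs lay in 1 member and 14 members had any. Hp was spread over many cells instead, with 36 of 1426 UMIs in the highest member.

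**Figure D4:**
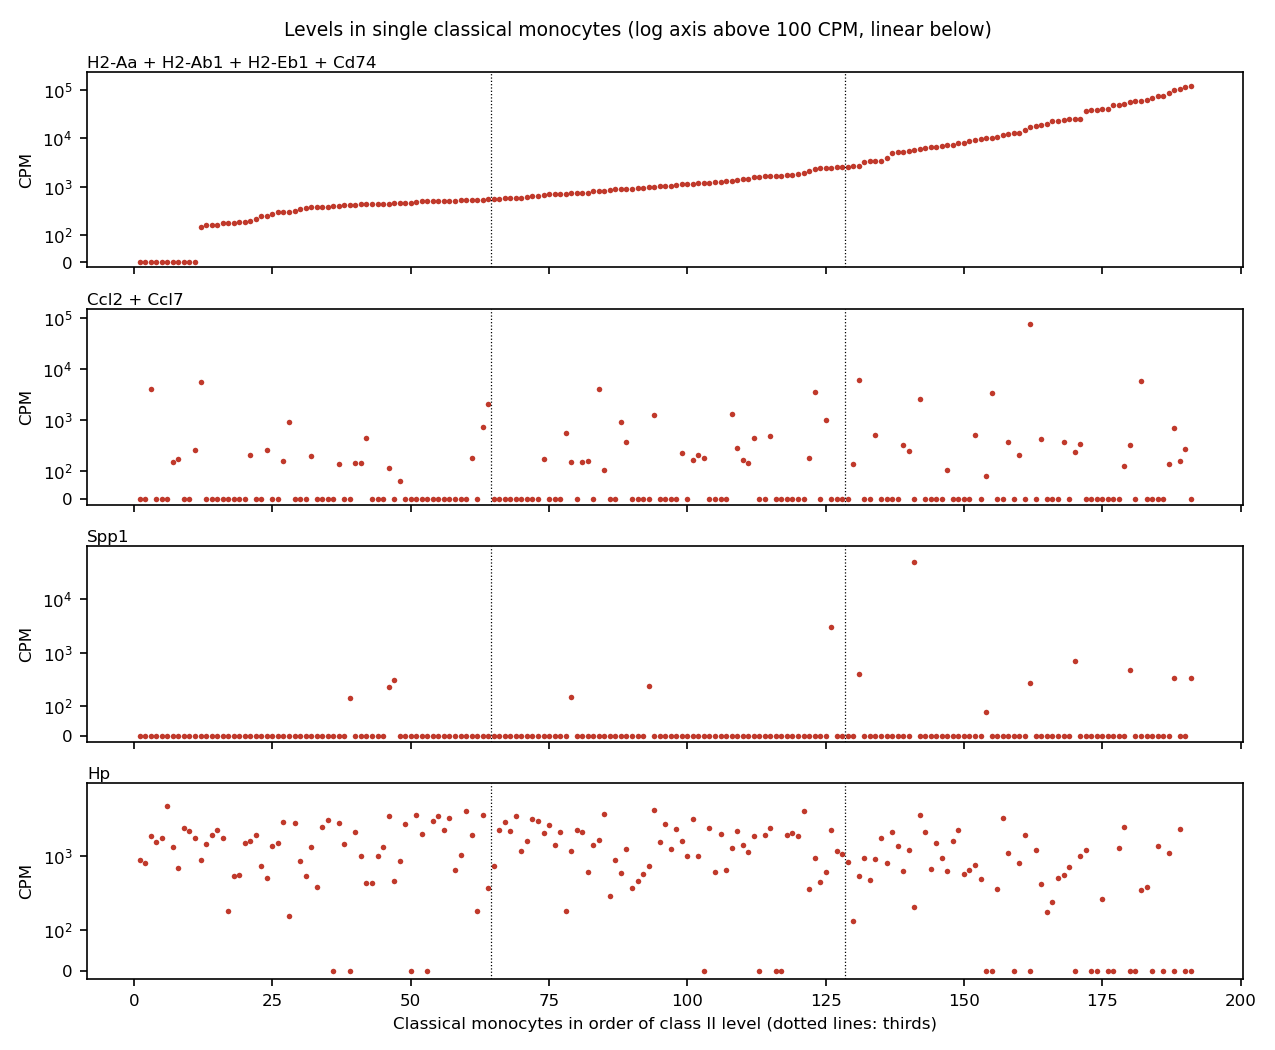
CPM in each of the 191 classical monocytes, in order of class II level from low to high, for the class II sum, Ccl2 with Ccl7, Spp1 and Hp; the axis is linear below 100 CPM and logarithmic above, and dotted lines mark the 3 ranges. Class II reaches 119150 CPM, Hp is at 0 in more members of the upper range, and 1 member each stands apart for Ccl2 with Ccl7 and for Spp1.

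Members also differed by Chil3, in ranges chosen after the values were seen. Of the members, 89 had 5 or more Chil3 UMIs and 54 had 0. Because a member without Chil3 had to hold 3 UMIs of Ly6c2, the ranges differ in Ly6c2 by the rule. Members with 5 or more had 903 CPM of Slpi, against 292 CPM in members with 0. Thbs1 was 1438 and 653 CPM, C5ar1 207 and 40.5 CPM, and Cxcl2 2783 and 1142 CPM in the same order. Endothelial markers differed too, with 598 CPM in members with 5 or more and 145 CPM in those with 0. Mural markers had 344 and 49.1 CPM. Members with 5 or more included the cell with 169 of all 199 mural UMIs. They also included the cell with 152 of all 363 endothelial UMIs. Plasmacytoid dendritic markers were 511 and 1015 CPM, and fibroblast markers 1003 and 1570 CPM. Their part in these differences was not tested. Ccl4, a CC chemokine, was 368 CPM in members with 5 or more and 2532 CPM in those with 0, 6.89-fold lower and 4.13-fold lower without the highest cell of each range. Ccl5, a chemokine of lymphocytes as well, was 10.4-fold lower, and natural killer genes moved with it: Nkg7 had 3.93 CPM in members with 5 or more and 60.7 CPM in those with 0. Members with 0 Chil3 UMIs included the cell with 103 of all 247 natural killer UMIs. The Ccl5 and Nkg7 differences without that cell are not given here. The part of the natural killer genes in the Ccl5 difference was not tested.

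The neurotensin system, the target of the knockout, was barely detected in classical monocytes. Nts, the neuropeptide itself, had 1 UMI over all members. Its receptors Ntsr1 and Ntsr2 had 0 UMIs. The 3 UMIs that stand for a 0 in ratios would be 2.67 CPM in the members, which is no upper bound. Sort1, the sorting receptor sortilin that also binds neurotensin, had 17.8 CPM (10.9 to 27.5) in classical monocytes, 31.5 CPM (15.1 to 58.0) in non-classical monocytes and 2.94 CPM (2.01 to 4.15) in macrophages, 6.07-fold (3.29 to 10.9) higher than in macrophages. The CreERT2 transgene that the feature table lists had 0 UMIs in the members. No genotype was read from these transcripts.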

How the data were processed

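Single-cell RNA was captured with 10x 3′ v3.1 chemistry. The deposited matrix holds whole UMI counts per gene and barcode, not normalized; STARsolo, Scanpy and mm10 are named per the submitters' processing notes, and how barcodes were called as cells is not given in the sources used here. All 9369 barcodes came from 1 pooled library, and the hashtag library that assigns them to mice was not analysed here. No test across mice was therefore made, and values rest on UMIs summed over cells.

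The macrophage and non-classical rules also required 0 UMIs of Retnlg, Cxcr2, Cd209a, Pdgfra and the CD3 genes; the non-classical rule further required Arg1 under 2 and 0 of Cdh5. Its limit of 10 Dcn UMIs was added after the levels were seen, because some barcodes carried fibroblast RNA. Members and the 37 gene lists were chosen with earlier results of these data known.

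Zero levels in ratios were set to 3 UMIs over the set. Shares of cells were computed after thinning barcodes to 2500 UMIs (seed 1). Doublets called by Scrublet were removed only as an alternative. The named genes were the markers and rule genes; in each comparison the 10 largest ratios per direction among genes past 2-fold with at least 100 CPM on the higher side; per list the 2 genes with most UMIs and the 2 largest ratios per direction; Nts, Ntsr1, Ntsr2 and Sort1; and the 10 genes with most UMIs. A few genes are not reported here. Other list genes were named for their role after their values were seen. A looser C/EBP pattern, TTNCNNAA, was tried first and occurs in 40.7% of promoters. Ratios and intervals were tested on simulated data. Tools were Python 3.11.15, numpy 2.4.6, scipy 1.17.1, pandas 2.3.3, matplotlib 3.10.9, scanpy 1.11.5 and anndata 0.12.19. Of 56954 gene IDs, 52029 were in GENCODE M21. Alternatives changed the rules, the UMI minimum, the weighting and the centring.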

Additional observations from a re-analysis of the deposited data

How the results depend on the processing

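No paired analysis was possible because no file used here ties a barcode to a mouse. Of 153 named genes past 2-fold against macrophages, 143 kept their direction under all 14 alternatives, and of 112 against non-classical monocytes, 99 did under all 15. Leaving aside the UMI minimums, 122 of the 153 and 68 of the 112 kept the 2-fold call under every alternative. Against non-classical monocytes, 22 named calls were lost without the Dcn limit, 21 on thinned barcodes and 18 without the highest cell. Against macrophages the last 2 lost 17 and 18. Among all genes called against non-classical monocytes, 251 of 446 higher and 223 of 451 lower kept the call without the Dcn limit. On thinned barcodes, 283 and 294 of them did. Against macrophages, 653 of 833 higher and 1103 of 1485 lower kept the call on thinned barcodes. The settings without the Dcn limit, without the Retnlg and Cxcr2 condition, without members rich in Dcn and without the highest cell were chosen after seeing the data. Against macrophages, 2609 genes were lower with cells weighted equally (which carries no interval) and 535 higher with at least 100 UMIs. Against non-classical monocytes, 837 were higher with cells weighted equally, 176 were higher and 127 lower with at least 100 UMIs, and 1057 were lower without the Dcn limit, of which 223 were shared. The UMI minimum tests fewer genes; for the others the cause was not tested. Ratios of named genes that changed direction were as follows, and their cause was not tested. With the rules applied to thinned barcodes, the ratio against macrophages was Pdgfrb 0.419, Acta2 0.583, Rgs5 0.142, Kcnj8 0.402, Ly6c1 0.134 and Steap4 0.865. With members of other lineages removed, the ratio against macrophages was Fabp4 0.628, Emcn 0.234, Pdgfrb 0.553, Acta2 0.663, Rgs5 0.194, Kcnj8 0.553, Ly6c1 0.381 and Steap4 0.928. With macrophages of Arg1 under 2, the ratio against macrophages was Serpinb2 1.89. Without the highest cell of each set, the ratio against macrophages was Jchain 1.39, Rgs5 0.595, Kcnj8 0.972 and Ly6c1 0.576. With the rules applied to thinned barcodes, the ratio against non-classical monocytes was Ccl5 1.24, Gzma 15.3, Col1a1 0.983, Ly6c1 0.176, Rsad2 0.265 and H2-DMb2 1.06. With members of other lineages removed, the ratio against non-classical monocytes was Gas6 0.714. With Ace and Spn of at least 3, the ratio against non-classical monocytes was Rgs5 4.54. With Treml4 or Eno3 also required, the ratio against non-classical monocytes was Ccl5 2.64 and Gzma 19.7. Without the Dcn limit, the ratio against non-classical monocytes was Col1a1 0.0728, Col1a2 0.0618, Acta2 0.364, Ly6a 0.316, Gas6 0.170, Timp3 0.174 and Lpl 0.323. With members of 10 or more Dcn UMIs removed, the ratio against non-classical monocytes was Gas6 0.389. Without the highest cell of each set, the ratio against non-classical monocytes was Ccl5 1.72, Gzma 5.37, Rgs5 1.13 and Ly6c1 0.660. Centred on the median ratio of genes with at least 50 CPM (log2 0.14 against macrophages), 660 genes were higher and 1833 lower than in macrophages, and Ccr1, Ccl6 and Ptgs2 were then short of 2-fold. The 67 non-classical monocytes limited the precision of that comparison.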
